A study of Mus musculus with 8 samples.

Results

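RNA from the stress granule-enriched fraction of Mettl3-knockout mouse embryonic fibroblasts was set against total RNA of the same knockout cells. The comparison was chosen by the sample labels alone and takes 4 of the 8 libraries of the series, 2 knockout granule libraries and 2 knockout total libraries. All genes that passed an expression filter were compared, 18952 of the 39017 gene identifiers counted. The fibroblasts came from E13.5 embryos and carried a Cre recombinase activated by 500 nM 4-hydroxytamoxifen for 48 h to delete Mettl3, with loss of the protein and of m6A checked 7 days later. Total RNA was taken from unstressed cells, and the granule fraction from cells held for 30 min in sodium arsenite at 500 µM and then enriched by centrifugation. Both kinds of RNA were selected on oligo(dT) beads. The other 4 libraries are the same fractions of control cells, for which the labels leave unsaid whether 4-hydroxytamoxifen was given. The design text calls the replicates biological, but no label says whether they came from separate embryos or cultures. The p-values therefore measure the spread between libraries within the groups. That spread was pooled for each gene over all 8 libraries of the series, which assumes that it is alike in the groups. Arsenite and fractionation were applied together, and no total RNA of stressed knockout cells was analysed here. A change made by stress in the cells therefore cannot be told apart from sorting of an mRNA into or out of the granule fraction. In bulk RNA, fewer cells of a type and less RNA per cell cannot be told apart either.

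Stress granules are cytoplasmic assemblies of mRNA and protein that form when translation initiation is blocked, as arsenite does through phosphorylation of the initiation factor eIF2α. METTL3 is the methyltransferase subunit of the writer complex of m6A, a methyl mark on adenosines of mRNA that is read by YTH-domain proteins and is known for speeding mRNA decay. Arsenite is also a thiol-reactive compound that induces immediate-early, heat-shock and antioxidant genes in fibroblasts, so the genes of those programmes are described below by role.

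Mettl3 transcript itself read 6 and 7.35 CPM (read counts scaled to library size) in the knockout total libraries and 5.56 and 6.38 CPM in the knockout granule libraries. In control cells it read 25.4 and 24.9 CPM in total RNA and 15.7 and 15.4 CPM in the granule fraction. Mettl3 was thus lower in all 4 knockout libraries than in any control library, although 18.38% of its exonic length overlaps another gene. All 15 fibroblast markers examined were detected in every library. They summed to 6815 to 7537 CPM in the knockout totals and 9367 to 10602 CPM in the knockout granule libraries (sums per library size). Col1a1 rose from 1270 and 1226 CPM to 3966 and 3382 CPM, whereas Fn1, fibronectin, fell from 3698 and 2665 CPM to 1541 and 1296 CPM. By the test described below, 4 (26.7%, beside 9.17% of all genes) were called higher. Fn1 alone (6.67%, beside 8.47%) was called lower. Vim, which encodes vimentin, read 1238 and 999 CPM in total and 1269 and 1354 CPM in granule RNA. Markers of 8 other cell types were also present at low levels. The 10 epithelial markers summed to 199 and 243 CPM in the totals and 672 and 849 CPM in the granule libraries, with none at 0. Krt18, which encodes a simple-epithelium keratin, made up most of the sum in the granule libraries but not in the totals, at 46.9 and 87.6 CPM in total and 520 and 656 CPM in granule RNA. Epcam, a defining epithelial adhesion molecule, stayed at 0.728 and 1.1 CPM in total and 1.61 and 1.42 CPM in granule RNA. Sums of the 10 chondrocyte markers (34.4 and 25.8 against 78.2 and 81.6 CPM, 1 to 4 of them at 0 in a library) and of the 10 neural and glial markers (163 and 278 against 378 and 389 CPM, at most 1 at 0) were also higher in granule RNA. Single genes carried both sums, Sox9 (36.3 and 23.1 against 73.5 and 79.2 CPM) the first and Nes (166 and 239 against 351 and 372 CPM) the second. CPM of single genes carry a further scaling factor for each library (TMM) that the sums lack, so a gene can slightly exceed its sum. The part of these cell types in any result below was not tested. Sums of the macrophage, endothelial, skeletal muscle, adipocyte and erythroid lists lay between 12 and 102 CPM in the knockout libraries.

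The total counts were 123508539 and 91787496 in the knockout totals and 105980382 and 97492170 in the knockout granule libraries, within a range of 67257220 to 123508539 over the series. At these depths 3 counts correspond to 0.0243 to 0.0446 CPM. The 2 knockout total libraries differed far more from each other than any other replicates. Over 10261 genes with at least 5 CPM, the median absolute log2 difference between them was 0.813, and 40.1% of these genes were over 2-fold apart. For the knockout granule libraries the same values were 0.134 and 0.351%, and for the control granule libraries 0.101 and 0.127%. The test used below pools the spread of a gene over all groups. Its adjusted p for the knockout comparison thus draws on these tighter pairs as well as on the knockout totals. The difference between the knockout totals went with the GC content of the genes (Spearman rho -0.714 across 10212 genes, which are not independent replicates). The difference between the control totals went with GC content as closely (rho 0.74), at a median absolute difference of 0.312 with 2.33% of genes over 2-fold apart, and the genotype differences below use those libraries too. Mitochondrially derived RNA made up 7.6% of counts in total replicate 1 and 0.807% in total replicate 2. Mitochondrial RNA was 6.16% and 8.81% of counts in the knockout granule libraries and 0.59% to 0.881% in the 4 control libraries. Because of this, each total library is shown on its own, and a change is said to hold when the gene passed the test and was at least 2-fold changed in one direction in all 4 pairings of a granule with a total library.

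Across all genes, 3343 of 18952 (17.6%) were called in granule against total RNA, 1737 (9.17%) higher and 1606 (8.47%) lower, at an adjusted p under 0.05 in edgeR's quasi-likelihood test with Benjamini-Hochberg adjustment, which is the test behind every adjusted p given here. Of these, 2381 (12.6%) held against both totals, 1451 (7.66%) higher and 930 (4.91%) lower. Against total replicate 1 alone, 4485 genes were at least 2-fold higher and 3057 at least 2-fold lower in both granule libraries. Against total replicate 2 alone, the counts were 3349 and 1953. In all, 1928 genes were 2-fold higher than both totals and 1051 were 2-fold lower than both, while 73 were higher than total 1 and lower than total 2, and 31 the reverse. Genes that held higher were of low abundance, with a median of 1.59 CPM over the knockout libraries against 12.5 CPM for genes that held lower and 8.25 CPM for all genes. Protein-coding genes made up 73% of the genes that held higher, 87.3% of those that held lower and 81.2% of all. Among the 10318 genes averaging 5 CPM or more, 519 held higher and 569 held lower.

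The number of calls depended strongly on single libraries. Without knockout granule replicate 1 or 2 it was 293 or 243, and without knockout total replicate 1 or 2 it was 6802 or 9707. In such a fit the lone remaining library of the group is assumed to vary like the other groups. Without control total replicate 1 or 2 it was 2075 or 2009, and without control granule replicate 1 or 2 it was 1565 or 1553. When only the 4 knockout libraries were fitted, no gene was called and 4363 genes had an unadjusted p under 0.05. A core of 195 genes both held and was called in all 8 fits that left out 1 library. Of the 2381 genes that held, 2375 to 2381 kept their direction in each fit that left out 1 library. This follows largely from the rule for holding, which asked for one direction in all 4 pairings, and is no separate support.

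**Figure D1:**
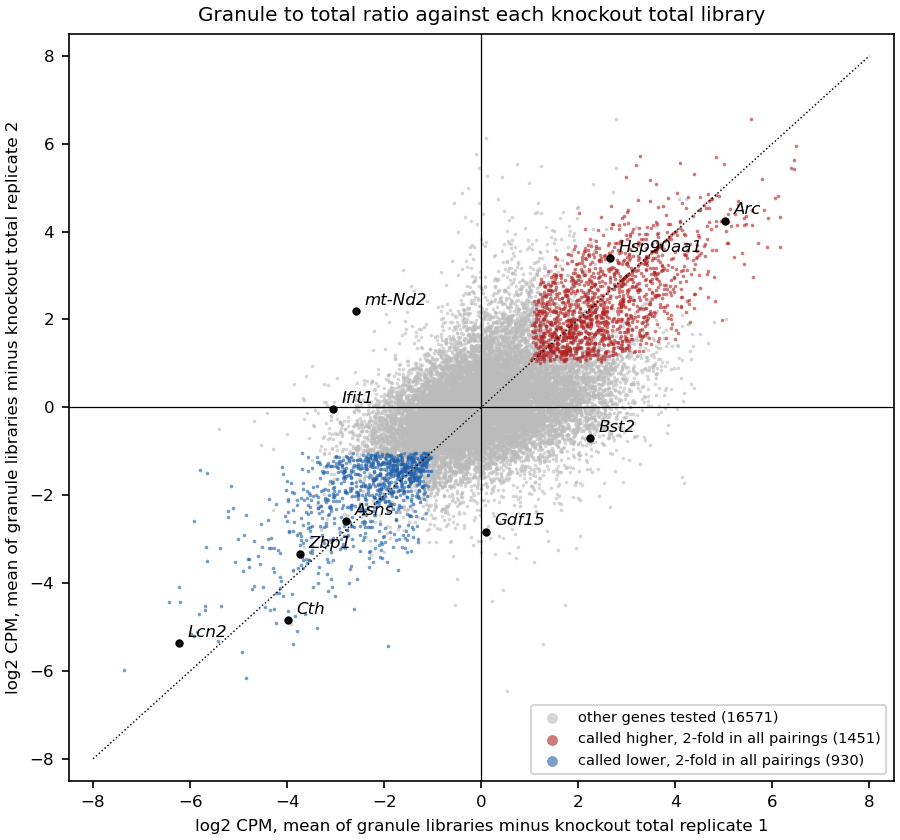
Log2 CPM of the knockout granule libraries (mean) minus knockout total replicate 1 (horizontal axis) and minus total replicate 2 (vertical axis), 1 point per gene tested. Red points (1451) and blue points (930) are genes that held higher and lower, and the dotted line marks equal change against both totals. Arc, Hsp90aa1, Asns, Zbp1, Cth and Lcn2 lie near the line, whereas mt-Nd2, Bst2 and Gdf15 lie far from it.

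Stretches of promoter are shown for 6 genes whose transcripts held in one direction, because 3 of the stress programmes described next are each known to be driven through a short DNA element. The windows are RefSeq sequences on GRCm38.p6, available for 12722 of the 18952 tested genes, and the 250 bases before the start were searched on both strands. Capitals mark every match in the stretch shown. The first pair are immediate-early genes with TGACG, an arm of the cAMP response element, here Fos at chr12:85473730-85473889 (plus strand) and Nr4a1 at chr15:101266606-101266845 (plus strand), where all matches lie on the opposite strand and read CGTCA.
Fos: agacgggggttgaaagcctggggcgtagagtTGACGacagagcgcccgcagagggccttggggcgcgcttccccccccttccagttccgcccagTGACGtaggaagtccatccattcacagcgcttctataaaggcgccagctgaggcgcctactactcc
Nr4a1: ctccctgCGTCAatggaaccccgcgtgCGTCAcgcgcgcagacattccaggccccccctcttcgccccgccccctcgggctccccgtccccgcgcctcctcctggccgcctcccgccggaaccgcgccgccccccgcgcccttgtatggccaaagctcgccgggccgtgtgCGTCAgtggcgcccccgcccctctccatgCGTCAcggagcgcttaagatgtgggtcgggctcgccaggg
The second pair are ATF4 target genes with TGATGNAA, the core of the amino acid response element, here Gars at chr6:55037841-55038000 (plus strand) and Chac1 at chr2:119351042-119351228 (plus strand), both matches being reverse complements.
Gars: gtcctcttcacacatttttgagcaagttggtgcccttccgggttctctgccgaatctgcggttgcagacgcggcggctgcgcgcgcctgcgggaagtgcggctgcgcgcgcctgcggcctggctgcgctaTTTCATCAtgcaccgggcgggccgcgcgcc
Chac1: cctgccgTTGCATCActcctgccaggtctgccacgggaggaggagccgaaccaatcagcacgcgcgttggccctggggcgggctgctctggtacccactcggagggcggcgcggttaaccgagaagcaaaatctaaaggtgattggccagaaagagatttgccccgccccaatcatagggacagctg
The last pair are interferon-stimulated genes with the interferon-stimulated response element, searched as TTTC, any 2 bases and TTTC, here Ifit3 at chr19:34583369-34583528 (plus strand) and Rsad2 at chr12:26456453-26456612 (minus strand).
Ifit3: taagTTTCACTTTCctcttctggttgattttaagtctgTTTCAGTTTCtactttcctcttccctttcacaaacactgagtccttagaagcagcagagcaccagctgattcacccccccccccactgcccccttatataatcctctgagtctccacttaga
Rsad2: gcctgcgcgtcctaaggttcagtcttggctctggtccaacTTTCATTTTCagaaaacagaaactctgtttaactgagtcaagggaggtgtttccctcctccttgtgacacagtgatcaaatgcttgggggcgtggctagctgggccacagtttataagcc
TGACG was present in 8 of 13 (61.5%) immediate-early genes that held higher and had a window, against 28% of all windows. The full palindrome TGACGTCA, which contains TGACG on both strands, was in 1 of the 13 and in 2.74% of all. TGATGNAA was in 5 of 11 (45.5%) ATF4 targets that held lower, against 2.6% of all windows. The interferon-stimulated response element was in 7 of 15 (46.7%) interferon-stimulated genes that held lower, against 3.31% of all. The serum response element was in 3 of 13 (23.1%) of those immediate-early genes and in 1.49% of all windows. The heat shock element, searched as GAA, any 2 bases, TTC, any 2 bases and GAA, was in 0 of the 3 chaperone genes that held higher and had a window, and in 0.448% of all. These matches describe the letters of the windows and not the binding of any factor. The lists gather genes known for these programmes, so a higher share of the matching element than in all windows was likely beforehand. List members that did not hold were not counted apart, so the shares say nothing about holding or its direction.

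Immediate-early genes, the transcription factors and feedback phosphatases that are transcribed within minutes of a stimulus, had the highest median of the 31 lists in the fit of both totals. Against total 1 the histone list had the same median, and against total 2 the mitochondrially encoded and epithelial lists were higher. Of 46 tested, 21 (45.7%, beside 9.17% of all genes) were called higher and 18 held against both totals, beside 7.66% of all. Only Dusp4 was called lower. The median log2 ratio of the list was 1.12, with 1.25 against total replicate 1 and 0.97 against total replicate 2, beside 0.04 over all genes. Arc (chr15:74669083-74672570), which encodes a cytoskeleton-associated regulator of receptor trafficking, read 4.76 and 8.19 CPM in the totals and 180 and 135 CPM in the granule libraries. Both granule values lay far above both totals, a log2 change of 4.60 ± 0.38 (adjusted p = 0.0021). Values after ± are SE derived from the F statistic of the test, with 2 libraries a group throughout. They rest on the spread pooled over all 8 libraries and not on the 2 groups compared alone. Egr2, a zinc finger transcription factor, read 6.68 and 8.11 CPM against 164 and 91.7 CPM and rose by 4.11 ± 0.36 (adjusted p = 0.0021). Fos (chr12:85473890-85477273), the AP-1 subunit whose promoter is printed above, read 12.4 CPM in each total and 184 and 117 CPM in the granule libraries. Its change of 3.61 ± 0.31 (adjusted p = 0.0021) was nearly the same against each total, 3.57 and 3.56. Its relative Fosb read 12.4 and 12.8 against 119 and 96.9 CPM (3.09 ± 0.28, adjusted p = 0.0021). The orphan nuclear receptor Nr4a1 read 35.1 and 41.8 CPM in the totals and 464 and 291 CPM in granule RNA (3.29 ± 0.32, adjusted p = 0.0023). For each of these 5 genes the groups did not overlap, which the rule for holding requires, and granule replicate 1 was the higher of the granule pair.

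Among the other immediate-early genes, Dusp1, a phosphatase that switches off MAP kinases, read 30.4 and 42.3 CPM in the totals and 204 and 147 CPM in granule RNA (2.27 ± 0.29, adjusted p = 0.004). Egr3 was scarce but separated, at 1.03 and 0.769 CPM against 6.53 and 4.89 CPM (2.66 ± 0.34, adjusted p = 0.0038). Junb, another AP-1 subunit, read 82.5 and 338 CPM against 1001 and 686 CPM, so its 2 totals lay further apart on the log scale than its granule libraries. Its call (adjusted p = 0.049) was close to the threshold. Ier5, a heat shock factor cofactor, read 58.4 and 190 CPM in the totals and 140 and 96.5 CPM in granule RNA, and the granule values lay between the totals (-0.07 ± 0.49, adjusted p = 0.94). Dusp4, the only member called lower, read 44.5 and 80.9 CPM against 24.6 and 19.9 CPM (-1.50 ± 0.33, adjusted p = 0.023). Of the 18 that held, all 18 were called without either total library, 13 without either control granule library, 16 or 15 without a control total library, and 5 or 8 without knockout granule replicate 1 or 2. Arc, Egr2, Fos, Fosb and Nr4a1 were called in all 8 of these fits. In control cells the median of the list was 1.29 and 19 members were called higher, beside 5.89% of all genes (10.1% were called in either direction there). The difference between genotypes was called for 0 of the 46, beside 0.517% of all genes, a share too small for this count to mark the list. There were 11 at an unadjusted p under 0.05, and DESeq2's Wald test called 7, beside 2658 of all 18952 genes.

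The list of cytosolic chaperones also takes in the mitochondrial Hspe1. Of its 27 genes tested, 4 (14.8%, beside 9.17% of all genes) were called higher and all 4 held. A further 2 (7.41%, beside 8.47%) were called lower and neither held. The median of the list was -0.25, with -0.29 against total replicate 1 and 0.11 against total replicate 2. Hsp90aa1 (chr12:110690605-110702728), the stress-inducible cytosolic HSP90, read 552 and 331 CPM in the totals and 3010 and 3996 CPM in the granule libraries. It rose by 2.99 ± 0.37 on the log2 scale (adjusted p = 0.0038) and was called in all 8 fits that left out a library. The inducible HSP70 gene Hspa1b read 11.2 and 18.2 CPM against 57.1 and 44.6 CPM (1.79 ± 0.32, adjusted p = 0.011). Its neighbour Hspa1a read 0.584 and 1.14 CPM against 5.5 and 4.57 CPM (2.54 ± 0.38, adjusted p = 0.0064). These 2 genes are near-identical copies, and 19.01% of the exonic length of Hspa1a overlaps another gene, so how their reads were divided is uncertain. Hspa4l, an HSP70 nucleotide-exchange factor, read 38.3 and 19 CPM against 79.3 and 95.9 CPM (1.61 ± 0.39, adjusted p = 0.029). The members called lower were Hspe1, the mitochondrial co-chaperonin, at 211 and 155 CPM against 83.1 and 85.8 CPM (-1.11 ± 0.28, adjusted p = 0.034), and Stip1, the adaptor that joins HSP70 to HSP90, at 763 and 514 CPM against 324 and 287 CPM (-1.06 ± 0.28, adjusted p = 0.035). Dnajb1, an HSP40, read 52.6 and 109 CPM against 175 and 155 CPM, without overlap, but was not called (1.03 ± 0.35, adjusted p = 0.08). Hspa4 read 814 and 368 CPM against 288 and 279 CPM and was not called (-1.06 ± 0.37, adjusted p = 0.086). Of the 4 that held, 1 was called without knockout granule replicate 1 or 2, 3 without either control granule library and 4 without either total. In control cells 7 members were called higher, beside 5.89% of all genes, and the median was 0.85. The difference between genotypes was called for 0 of the 27, beside 0.517% of all genes, so this count does not mark the list. There were 15 at an unadjusted p under 0.05, and DESeq2 called 6, beside 2658 of all 18952 genes.

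NRF2 targets supply glutathione, NADPH and iron storage under oxidative stress. Of 28 tested, 3 (10.7%) were called higher and 3 (10.7%) lower, near the shares of all genes, and the list median was 0.19. The higher members all held. Gsta4, a glutathione transferase acting on lipid aldehydes, read 5.85 and 2.76 CPM against 19.6 and 23 CPM (2.31 ± 0.40, adjusted p = 0.011). Blvrb, biliverdin reductase B, read 4.57 and 12 CPM against 25.3 and 25.2 CPM (1.61 ± 0.46, adjusted p = 0.049). Gstm1, of a multigene family whose reads may be shared, read 20.9 and 26.3 CPM against 55.7 and 55.6 CPM (1.24 ± 0.28, adjusted p = 0.023). Among the lower members, Slc7a11, the cystine importer, read 119 and 36.8 CPM against 10.3 and 9.41 CPM and held (-2.98 ± 0.61, adjusted p = 0.017). Gclc, the rate-limiting enzyme of glutathione synthesis, read 197 and 44.8 CPM against 22.6 and 24 CPM and was less than 2-fold below total replicate 2 in at least 1 pairing (-2.38 ± 0.60, adjusted p = 0.033). Fth1, ferritin heavy chain, read 2847 and 2299 CPM against 1258 and 1118 CPM (-1.12 ± 0.27, adjusted p = 0.029). Hmox1, haem oxygenase, singled out after its values were seen because it is a standard arsenite-induced gene, read 150 and 188 CPM in the totals and 177 and 137 CPM in granule RNA (-0.11 ± 0.26, adjusted p = 0.8), with overlapping groups. Of the 4 that held, 0 were called without knockout granule replicate 1 or 2 and 2 without either control granule library. In control cells 2 members were called higher and 1 lower, beside 5.89% and 4.17% of all genes.

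Of 8 metal-response genes, 0 were called in either direction, with 1 higher and 1 lower at an unadjusted p under 0.05 and 0 called by DESeq2. The metallothionein Mt1 read 270 and 136 CPM in the totals and 287 and 239 CPM in granule RNA (0.37 ± 0.35, adjusted p = 0.49). Mt2 read 22.7 and 85 CPM against 132 and 98.6 CPM, without overlap but close to total replicate 2 (1.10 ± 0.53, adjusted p = 0.19), and 73.47% of its exonic length overlaps another gene.

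ATF4 targets, the amino acid transporters, synthetic enzymes and aminoacyl-tRNA synthetases of the integrated stress response, were lower in the granule fraction. Of 30 tested, 21 (70%, beside 8.47% of all genes) were called lower and 15 held lower, beside 4.91% of all genes. None of the 30 was called higher, none had a positive ratio at an unadjusted p under 0.05, and DESeq2 called 0 higher and 24 lower. The median was -1.61, with -1.06 against total replicate 1 and -1.81 against total replicate 2. Asns (chr6:7675169-7693254), asparagine synthetase, read 444 and 389 CPM in the totals and 67.2 and 61.8 CPM in the granule libraries. Both pairs were tight, and the change of -2.69 ± 0.24 (adjusted p = 0.0021) was -2.78 against total 1 and -2.59 against total 2. Cth, cystathionine gamma-lyase, had the lowest ratio of the list, with 107 and 195 CPM against 7.46 and 6.08 CPM (-4.48 ± 0.49, adjusted p = 0.003). The cationic amino acid transporter Slc7a1 read 779 and 606 CPM against 116 and 128 CPM (-2.50 ± 0.26, adjusted p = 0.003). The large neutral amino acid transporter Slc7a5 read 464 and 814 CPM against 145 and 130 CPM (-2.22 ± 0.32, adjusted p = 0.0057). The groups of these transporters and enzymes did not overlap, which holding requires. The distance between their totals was smaller than that to the granule libraries. Shmt2, the mitochondrial serine hydroxymethyltransferase, read 1021 and 2040 CPM against 329 and 299 CPM (-2.29 ± 0.36, adjusted p = 0.0073). Vldlr, a lipoprotein receptor, read 130 and 74 CPM against 21.2 and 18.4 CPM (-2.36 ± 0.40, adjusted p = 0.0094).

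Of the ATF4 targets with a printed promoter, Gars, glycyl-tRNA synthetase, read 959 and 624 CPM in the totals against 188 and 175 CPM (-2.12 ± 0.28, adjusted p = 0.0044), and Chac1, a glutathione-degrading cyclotransferase, read 118 and 285 CPM against 57 and 51 CPM (-1.90 ± 0.41, adjusted p = 0.02). Trib3, a pseudokinase that restrains ATF4 signalling, shows the dependence on the total library. It read 116 and 438 CPM against 68 and 60 CPM, a log2 ratio of -0.86 against total 1 and -2.78 against total 2, and did not hold although it was called (-2.11 ± 0.55, adjusted p = 0.036). Atf4 itself, named after its values were seen, read 1058 and 1082 CPM against 640 and 585 CPM and just missed the threshold (-0.80 ± 0.24, adjusted p = 0.052). The 15 that held were all called in each fit that left out a total or a control library, and 3 were called without knockout granule replicate 1 or 2. In both of these fits the 3 included Asns, Cth and Slc7a1, which were called in all 8. In control cells the median was -1.68 and 20 members were called lower, beside 4.17% of all genes. The difference between genotypes was called for 0 of the 30, beside 0.517% of all genes, so this count does not mark the list. There were 7 at an unadjusted p under 0.05, and DESeq2 called 6, beside 2658 of all 18952 genes.

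Genes of the endoplasmic reticulum and its unfolded protein response had a median of -0.41, and 4 of 21 (19%, beside 8.47% of all genes) were called lower. Ern1, the sensor kinase IRE1, read 78.3 and 69.8 CPM in the totals and 13.4 and 11.3 CPM in granule RNA (-2.58 ± 0.28, adjusted p = 0.003). Herpud1, a degradation factor of the reticulum, read 220 and 248 CPM against 69.9 and 54.1 CPM (-1.92 ± 0.28, adjusted p = 0.0054). These 2 genes held, but without knockout granule replicate 2 neither was called (for Ern1 -2.47, adjusted p = 0.051). The other genes called lower, Hyou1 (-1.25 ± 0.32, adjusted p = 0.035) and Xbp1 (-1.16 ± 0.27, adjusted p = 0.024), did not hold. No member was called higher, with 1 at an unadjusted p under 0.05 and 0 called by DESeq2.

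Of 25 p53 targets, 7 (28%, beside 8.47% of all genes) were called lower and 3 of them held, while 2 (8%) were called higher, near the 9.17% of all genes, and neither held. Eda2r, a TNF-family receptor, read 104 and 46.5 CPM in the totals and 13 and 15 CPM in granule RNA (-2.43 ± 0.43, adjusted p = 0.011). Aen, a nuclease of the apoptotic programme, read 86.5 and 107 CPM against 29.2 and 32.1 CPM (-1.66 ± 0.25, adjusted p = 0.0061). Tnfrsf10b, the TRAIL receptor, read 86.6 and 55.4 CPM against 22.2 and 23.3 CPM (-1.64 ± 0.29, adjusted p = 0.011). All 3 were called without either total and without any control library, but without knockout granule replicate 1 or 2 the count was 0. The higher members were Plk2, a polo-like kinase (139 and 105 against 247 and 239 CPM, adjusted p = 0.032), and Sesn1, a sestrin (1.16 ± 0.26, adjusted p = 0.022). The list median was -0.93 in knockout and 0.63 in control cells, where 6 members were called higher and 1 lower, beside 5.89% and 4.17% of all genes. Zmat3, an RNA-binding p53 target, was the only member for which the difference between genotypes was called, beside 0.517% of all genes. It read 126 and 116 CPM in the knockout totals and 56.3 and 64.5 CPM in the knockout granule libraries, against 92.3 and 92.4 CPM and 234 and 196 CPM in control cells (difference -2.22 ± 0.34, adjusted p = 0.047).

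Interferon-stimulated genes, the antiviral effectors and sensors, were lower in granule RNA against both totals. Of 34 tested, 24 (70.6%, beside 8.47% of all genes) were called lower and 22 held, beside 4.91% of all, and none was called higher (1 at an unadjusted p under 0.05 and 1 called by DESeq2). The median of -1.85 was -1.92 against total replicate 1 and -1.69 against total replicate 2. Gbp2, an interferon-induced GTPase, read 550 and 178 CPM in the totals and 23 and 19.9 CPM in the granule libraries (-4.08 ± 0.54, adjusted p = 0.0045). Its totals lay apart, and both still lay far above the granule libraries. Zbp1, a sensor of Z-form nucleic acid, read 209 and 159 CPM against 17.1 and 14.5 CPM (-3.54 ± 0.30, adjusted p = 0.0021). Oas3, an oligoadenylate synthetase, read 101 and 90.6 CPM against 8.14 and 8.32 CPM (-3.54 ± 0.28, adjusted p = 0.0021). Cmpk2, a mitochondrial nucleotide kinase, read 138 and 129 CPM against 15.5 and 16.4 CPM (-3.07 ± 0.30, adjusted p = 0.0025). These last 3 genes had close pairs in both groups and were called in all 8 fits that left out a library. Mx1, a dynamin-like GTPase, read 51.2 and 46 CPM against 8.8 and 6.26 CPM (-2.69 ± 0.38, adjusted p = 0.0052). The genes with printed promoters followed, Ifit3 with 1206 and 1310 CPM against 413 and 392 CPM (-1.64 ± 0.31, adjusted p = 0.013) and Rsad2 with 547 and 269 CPM against 83.8 and 106 CPM (-2.10 ± 0.42, adjusted p = 0.017). Ifit3 encodes a tetratricopeptide-repeat antiviral protein and Rsad2 encodes viperin.

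Of the 22 that held, 22 were called without either total, 19 without either control granule library, 21 without either control total library and 3 without knockout granule replicate 1 or 2. In control cells 30 of 34 were called lower, beside 4.17% of all genes, and the median was -2.77. The difference between genotypes was called for Ifi27l2a alone, beside 0.517% of all genes. There were 16 members at an unadjusted p under 0.05, and DESeq2 called 10, beside 2658 of all 18952 genes. Ifi27l2a, a small interferon-induced membrane protein, read 43.4 and 134 CPM in the knockout totals and 274 and 243 CPM in the knockout granule libraries (1.54 ± 0.47, adjusted p = 0.057). In control cells it went from 64.1 and 63.4 CPM to 5.16 and 5.68 CPM (-3.56 ± 0.51, adjusted p = 0.011), and the difference was 5.10 ± 0.69 (adjusted p = 0.039).

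Of 28 inflammatory and acute-phase genes tested, 9 (32.1%, beside 8.47% of all genes) were called lower and all 9 held, beside 4.91% of all. Lcn2 (chr2:32384633-32388252), the iron-siderophore-binding lipocalin, read 440 and 241 CPM in the totals and 6.22 and 5.49 CPM in the granule libraries (-5.86 ± 0.41, adjusted p = 0.0021). C3, the central complement component, read 239 and 301 CPM against 18.5 and 13.6 CPM (-4.07 ± 0.30, adjusted p = 0.0021). Ptx3, a pentraxin, read 94.1 and 150 CPM against 6.33 and 3.99 CPM (-4.56 ± 0.45, adjusted p = 0.0026). None of these groups overlapped, which holding requires, and each granule pair lay at least 10-fold below its lower total. Saa3, a serum amyloid, read 138 and 391 CPM against 10.2 and 8.52 CPM (-4.82 ± 0.54, adjusted p = 0.0031). The chemokine Cxcl5 read 82.3 and 22.8 CPM against 6.13 and 4.33 CPM (-3.33 ± 0.61, adjusted p = 0.012). Nfkbia, the inhibitor that retains NF-κB in the cytoplasm, was the member called higher, with 131 and 112 CPM in the totals and 535 and 540 CPM in granule RNA (2.15 ± 0.25, adjusted p = 0.0033). Of the 10 that held, 10 were called without either total and without any control library, 6 without knockout granule replicate 1 and 4 without replicate 2. Lcn2, C3, Ptx3 and Nfkbia were called in all 8 fits.

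**Figure D2:**
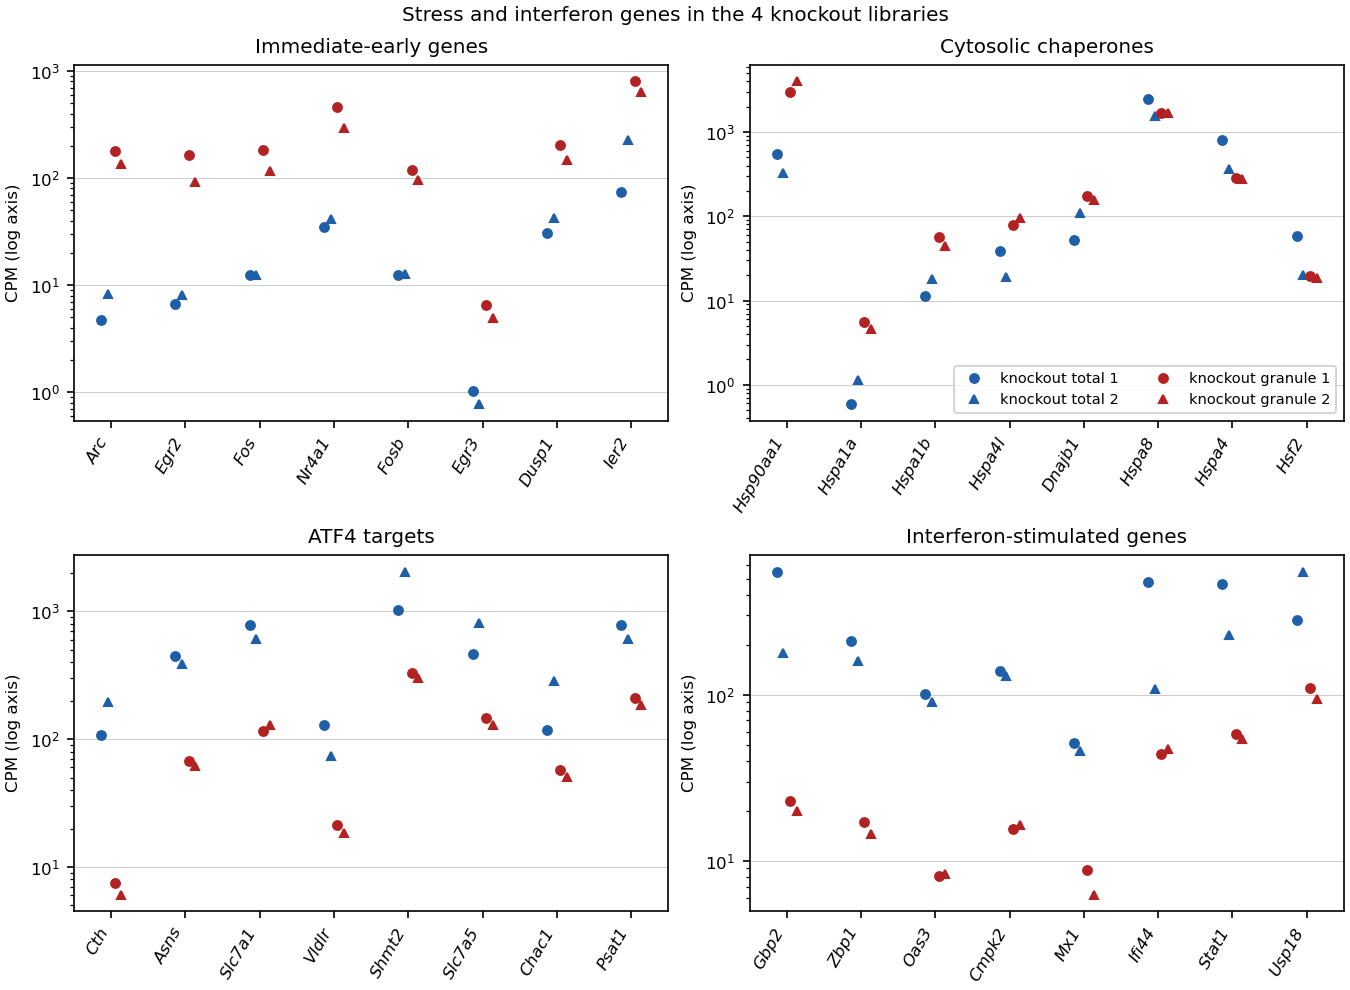
CPM on a log axis in each of the 4 knockout libraries (blue, total; red, granule; circles, replicate 1; triangles, replicate 2) for immediate-early genes, cytosolic chaperones, ATF4 targets and interferon-stimulated genes. All 8 immediate-early genes shown lie higher in granule RNA, the ATF4 targets and interferon-stimulated genes shown lie lower, and the chaperones are mixed, with Hsp90aa1 at 3010 and 3996 CPM in granule RNA and Hspa8 overlapping between groups.

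The largest changes that held among genes averaging 5 CPM or more were mostly outside the stress lists. Tktl1 (chrX:74177259-74208500), a transketolase-like gene, was nearly silent in the totals at 0.18 and 0.27 CPM and read 15.8 and 20.2 CPM in granule RNA (6.32 ± 0.39, adjusted p = 0.0021). Atcayos, an antisense transcript, read 0.261 and 0.519 CPM against 18.3 and 29.7 CPM (5.95 ± 0.48, adjusted p = 0.0021). How strand was handled in counting is not given in the sources used here and 16.05% of its exonic length overlaps another gene, so this value is uncertain. Mrgprf, an orphan G protein-coupled receptor, read 0.71 and 1.04 CPM against 20.6 and 16.4 CPM (4.40 ± 0.40, adjusted p = 0.0021). Stra6 (chr9:58063788-58153996), the receptor that takes up retinol, read 1.41 and 2.28 CPM against 44.2 and 32.9 CPM (4.38 ± 0.41, adjusted p = 0.0023). Nrep, a small protein of regenerating tissue, had the tightest values, with 10.8 and 9.96 CPM in the totals and 186 CPM in each granule library (4.16 ± 0.29, adjusted p = 0.0021). Ube2ql1, a ubiquitin-conjugating enzyme-like gene, read 0.962 and 0.634 CPM against 16.6 and 11.2 CPM (4.12 ± 0.43, adjusted p = 0.003). With Arc and Egr2, these make up the 8 largest rises, and all 8 were called in every fit that left out a library.

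The 8 largest falls began with Ostn, which encodes the secreted peptide osteocrin, at 18.8 and 7.14 CPM in the totals and 0.0546 and 0.153 CPM in granule RNA (-6.97 ± 1.07, adjusted p = 0.0066). Its exonic length overlaps another gene by 12.93%. Ppef1, a calcium-binding phosphatase, read 85 and 19.5 CPM against 1.11 and 1.12 CPM (-5.55 ± 0.78, adjusted p = 0.0053). B4galnt2, a glycosyltransferase whose exons overlap another gene by 15.27%, read 29.9 and 13.9 CPM against 0.482 and 0.539 CPM (-5.42 ± 0.56, adjusted p = 0.003). The tetraspan gene Ms4a4d read 20.9 and 9.84 CPM against 0.319 and 0.458 CPM (-5.31 ± 0.50, adjusted p = 0.0023). P2rx3, an ATP-gated ion channel, read 36.5 and 56.3 CPM against 1.12 and 1.22 CPM (-5.31 ± 0.48, adjusted p = 0.0021). The groups were apart in each case, which holding requires, with the granule values far below the lower total. The chemokines Ccl20 (68.3 and 6.67 against 0.937 and 1.29 CPM, -5.07 ± 0.99, adjusted p = 0.015) and Cxcl9 (128 and 22.6 against 2.73 and 2.29 CPM, -4.91 ± 0.77, adjusted p = 0.0074) had totals over 5-fold apart. Without knockout granule replicate 1 or 2, Ostn (adjusted p = 0.082 and 0.069), Ppef1 (0.072 and 0.075), Ccl20 (0.14 and 0.13) and Cxcl9 (0.086 and 0.096) were not called, whereas Lcn2, B4galnt2, Ms4a4d and P2rx3 were called in all 8 fits.

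Among extracellular matrix genes, 9 of 30 (30%, beside 9.17% of all genes) were called higher and 3 (10%, near the 8.47% of all genes) lower, and 7 and 2 of these held, beside 7.66% and 4.91%. The 3 chains of collagen VI, a beaded-filament collagen of the pericellular matrix, rose together. Col6a2 read 50.1 and 63.8 CPM in the totals and 451 and 382 CPM in granule RNA (2.87 ± 0.28, adjusted p = 0.0023). Col6a1 read 170 and 194 CPM against 881 and 719 CPM (2.14 ± 0.27, adjusted p = 0.0038). Col6a3 read 13.4 and 13.6 CPM against 83.8 and 64.9 CPM (2.46 ± 0.29, adjusted p = 0.0033). All 3 chains were called in each of the 8 fits that left out a library, and their totals agreed closely. Col1a1, the major fibrillar collagen chain, read 1270 and 1226 CPM against 3966 and 3382 CPM (1.56 ± 0.28, adjusted p = 0.01). Mgp, an inhibitor of calcification, read 21.2 and 20.3 CPM against 115 and 55.6 CPM (2.04 ± 0.36, adjusted p = 0.011). In the other direction, the fibrillar chain Col5a2 read 556 and 456 CPM against 197 and 189 CPM (-1.39 ± 0.25, adjusted p = 0.011), and the elastic-fibre protein Fbln5 read 85.8 and 78.4 CPM against 32.4 and 16.3 CPM (-1.75 ± 0.35, adjusted p = 0.016). Of the 9 that held, 4 were called without knockout granule replicate 1 or 2.

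Of 20 contractile genes, 4 (20%, beside 9.17% of all genes) were called higher and held, and Vcl was called lower (-1.17 ± 0.27, adjusted p = 0.024). Cnn2, a calponin, read 71.8 and 182 CPM against 630 and 603 CPM (2.28 ± 0.46, adjusted p = 0.016). The myosin light chain Myl9 read 7.72 and 9.8 CPM against 48.2 and 28.3 CPM (2.13 ± 0.37, adjusted p = 0.011), and its kinase Mylk read 21.4 and 13.2 CPM against 48.3 and 48.2 CPM (1.48 ± 0.30, adjusted p = 0.017). Of these 4, 0 were called without knockout granule replicate 1 and 1 without replicate 2. Among 20 metalloproteinases and their inhibitors, Mmp14, the membrane-bound collagenase, read 189 and 250 CPM against 1213 and 1072 CPM (2.38 ± 0.28, adjusted p = 0.0033) and was called in all 8 fits. The secreted collagenase Mmp13 went the other way, from 569 and 179 CPM to 51.5 and 33 CPM (-3.14 ± 0.56, adjusted p = 0.011), and was not called without knockout granule replicate 1 or 2. Of the 10 epithelial markers, 3 (30%, beside 9.17% of all genes) were called higher and none lower. The 3, Krt18 (3.13 ± 0.40, adjusted p = 0.0042), Krt8 (0.36 and 0.374 against 4.67 and 4.59 CPM, 3.65 ± 0.48, adjusted p = 0.0043) and Cldn4 (0.827 and 0.987 against 9.07 and 8.78 CPM, 3.30 ± 0.37, adjusted p = 0.003) were called in all 8 fits. The others were not called, among them Krt14 (-0.04 ± 0.58), Krt19 (-0.28 ± 0.40), Krt5 (-0.29 ± 0.58), Grhl2 (0.49 ± 0.45) and Cdh1 (0.65 ± 0.55). Acan, the cartilage proteoglycan, had 0 counts in both totals and 0.237 and 0.163 CPM in granule RNA.

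Of 24 genes that encode granule scaffold proteins, 1 (4.17%, beside 8.47% of all genes) was called lower, with 7 lower at an unadjusted p under 0.05 and 5 called lower by DESeq2. The 1 was Caprin1, a partner of G3BP, at 787 and 380 CPM against 195 and 192 CPM (-1.59 ± 0.37, adjusted p = 0.025), and it did not hold. None of the 24 was called higher, with 1 at an unadjusted p under 0.05 and 1 called by DESeq2. Of 29 very long mRNAs, a class often enriched in granule preparations, 4 (13.8%) were called higher and 3 (10.3%) lower, near the 9.17% and 8.47% of all genes, and the median was -0.02. Those that held were Akap9, a centrosomal scaffold (36.7 and 16.6 against 95.5 and 117 CPM, 1.99 ± 0.40, adjusted p = 0.017), Golgb1, the golgin giantin (126 and 98.8 against 254 and 288 CPM, 1.27 ± 0.29, adjusted p = 0.024), and, lower, the giant cadherin Fat1 (1048 and 436 against 177 and 149 CPM, -2.18 ± 0.42, adjusted p = 0.014). None of these 3 was called without knockout granule replicate 1 or 2, and Akap9 and Golgb1 were not called without either control granule library. Of 20 genes of the m6A machinery, 1 (5%, beside 9.17% of all genes) was called higher. It was the writer-complex subunit Rbm15, at 14 and 18.9 CPM against 48.1 and 45.7 CPM (1.51 ± 0.33, adjusted p = 0.022), but not without any one of the 4 granule libraries. None was called lower, with 5 at an unadjusted p under 0.05 and 3 called by DESeq2, and Mettl3 was not called (-0.16 ± 0.26, adjusted p = 0.7). The nuclear noncoding RNA Malat1 read 707 and 446 CPM against 2410 and 3206 CPM (2.28 ± 0.43, adjusted p = 0.013) and Firre, a chromatin-bound RNA, read 1.6 and 4.24 CPM against 0.746 and 0.407 CPM (-2.33 ± 0.57, adjusted p = 0.031). Malat1 was not called without knockout granule replicate 1 or 2, and Firre was not called without either of them or without control total replicate 1 or 2.

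Of 30 proliferation genes, the 2 (6.67%, beside 9.17% of all genes) called higher were the kinetochore proteins Cenpf (21.4 and 8.99 against 99.2 and 124 CPM, 2.88 ± 0.43, adjusted p = 0.0061) and Cenpe (52.4 and 21.9 against 203 and 263 CPM, 2.65 ± 0.43, adjusted p = 0.008). The 7 (23.3%, beside 8.47%) called lower included Rrm2, the ribonucleotide reductase subunit, at 236 and 273 CPM against 103 and 97.2 CPM (-1.35 ± 0.23, adjusted p = 0.0096), which held. None of these 3 was called without knockout granule replicate 1 or 2.

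**Figure D3:**
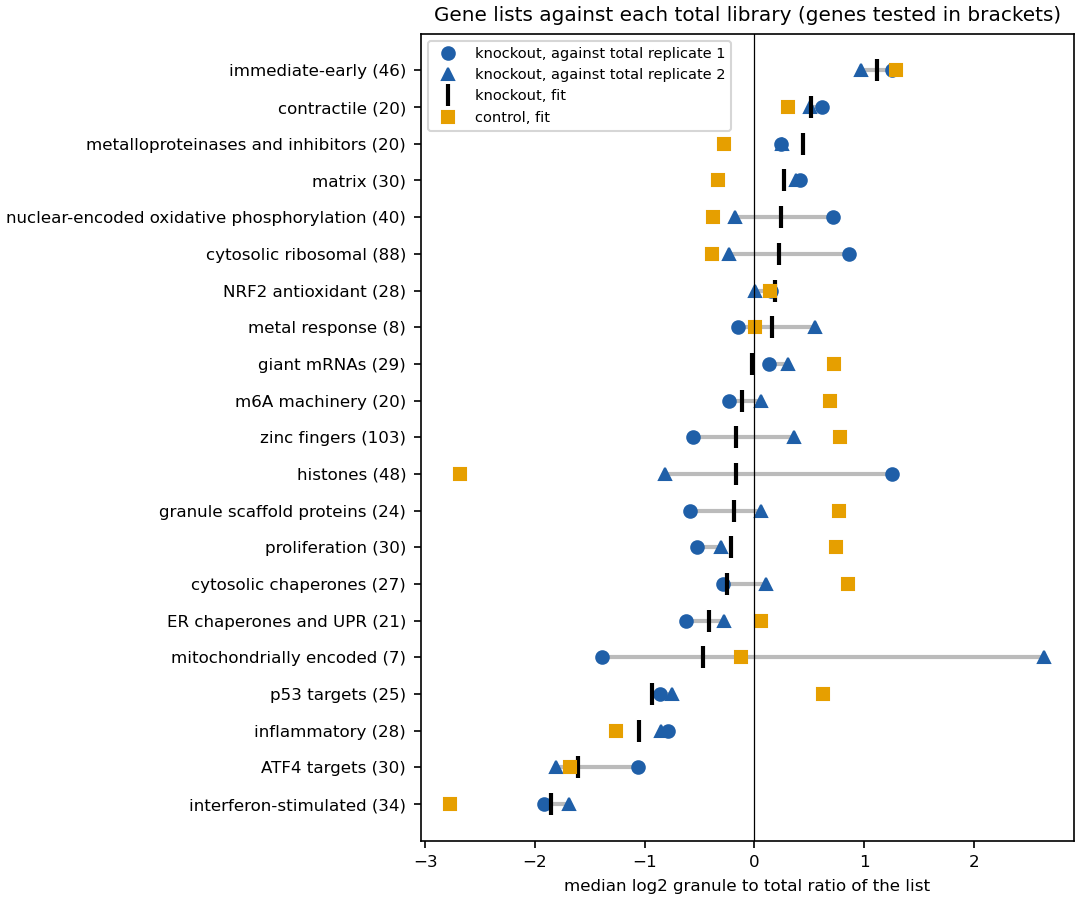
Median log2 granule to total ratio of each gene list (number of genes tested in brackets) against knockout total replicate 1 (blue circle), total replicate 2 (blue triangle), in the fit of both (black bar) and in control cells (orange square). The immediate-early list lies at 1.25 and 0.97 against the totals and the interferon-stimulated list at -1.92 and -1.69, while the mitochondrially encoded list spans -1.39 to 2.64.

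Several gene classes changed direction with the total library used. Mitochondrially encoded transcripts had a median of -1.39 against total 1 and 2.64 against total 2. Of these 7 genes, 0 were called in the fit of both totals, 0 had an unadjusted p under 0.05 and DESeq2 called 0. Without total 1 all 7 were called higher, and without total 2, 6 were called lower. mt-Nd2, a complex I subunit, read 12915 and 469 CPM in the totals and 1928 and 2390 CPM in granule RNA, so both granule libraries lay between the totals. Cytosolic ribosomal protein genes (88) had medians of 0.86 and -0.23 against the totals, nuclear-encoded oxidative phosphorylation genes (40) 0.72 and -0.18, Zfp700 to Zfp999 zinc finger genes (103) -0.56 and 0.36, and histone genes (48) 1.25 and -0.81. In the fit of both totals, 3 ribosomal genes (Rpl23a, Rpl35 and Rps6, 3.41%) and 1 oxidative phosphorylation gene (Uqcrc2, 2.5%) were called lower and none of them held. Both shares were below the 8.47% of all genes. Of the histone genes, 1 (2.08%, beside 9.17%) was called higher and held. Another 2 (4.17%, beside 8.47%) were called lower, and 1 of them held. Of the zinc finger genes, 6 (5.83%) were called higher and 5 (4.85%) lower, below the shares of all genes.

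Single stress genes also depended on the total library used, some in direction and others only in the size of the change. Ifit1, an interferon-induced RNA-binding protein, read 3411 and 424 CPM in the totals and 385 and 441 CPM in granule RNA, far below total 1 and level with total 2 (-2.21 ± 0.78, adjusted p = 0.086). Bst2, the tetherin that holds budding virus, read 204 and 1565 CPM against 974 and 954 CPM (0.12 ± 0.72, adjusted p = 0.92). Ftl1, ferritin light chain, read 222 and 2160 CPM against 1322 and 1507 CPM (0.25 ± 0.80, adjusted p = 0.85), and 34.63% of its exonic length overlaps another gene. For both genes the granule libraries lay between the totals and close to each other. Dnajb9, a chaperone of the endoplasmic reticulum, read 183 and 19.3 CPM against 22.4 and 18.2 CPM (-2.32 ± 0.84, adjusted p = 0.093). Gdf15, a stress-induced cytokine, read 6.63 and 50.6 CPM against 8.05 and 6.22 CPM (adjusted p = 0.11). Isg15, a ubiquitin-like modifier, read 498 and 2016 CPM against 453 and 459 CPM (-1.46 ± 0.55, adjusted p = 0.11). These 3 genes matched one total and lay far below the other.

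**Figure D4:**
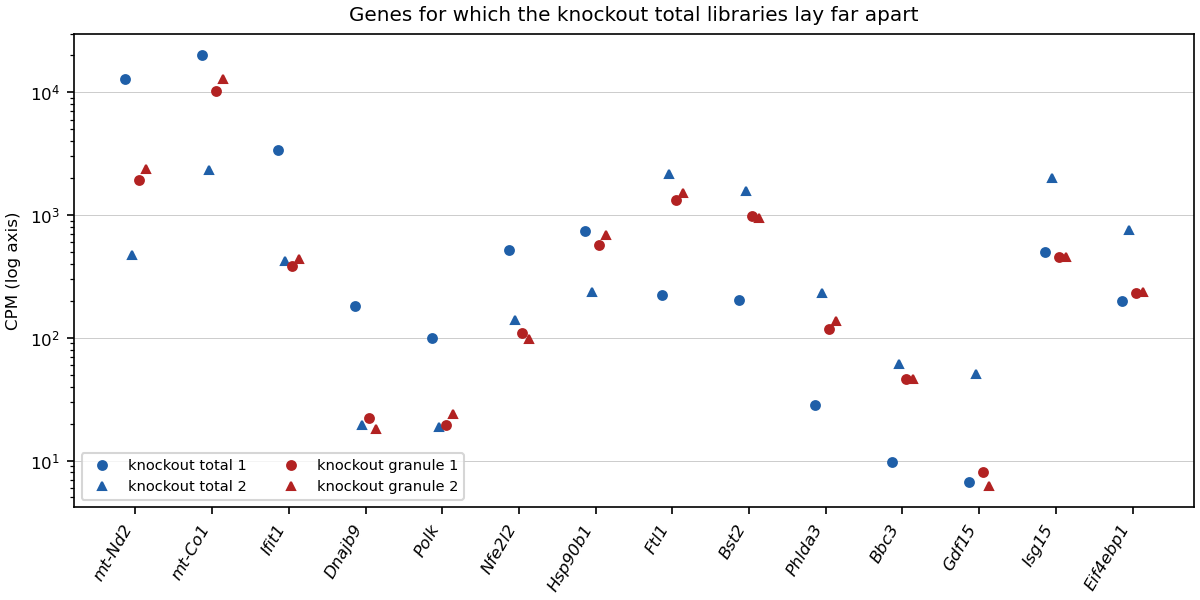
CPM on a log axis in the 4 knockout libraries (blue, total; red, granule; circles, replicate 1; triangles, replicate 2) for genes whose total libraries lay far apart. The granule pair is close together for each gene, while the totals of mt-Nd2 read 12915 and 469 CPM and those of Ftl1 read 222 and 2160 CPM.

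The granule to total ratio was also set against that of control cells, which share no library with it. The difference between genotypes was called for 98 of 18952 genes (0.517%), the ratio being higher in knockout cells for 76 and lower for 22. Of the 98, 84 were among the genes that held, beside 12.6% of all genes. Both counts use the same 4 knockout libraries, so this overlap is no separate support. The 3 collagen VI chains were among the 98. In control cells Col6a2 read 103 and 81.8 CPM in total and 69.3 and 62.6 CPM in granule RNA, a log2 change of -0.49 ± 0.26, and the difference was 3.36 ± 0.38 (adjusted p = 0.037). Col6a1 differed by 2.70 ± 0.37 (adjusted p = 0.039) and Col6a3 by 2.65 ± 0.40 (adjusted p = 0.044). Stra6 had the opposite direction in control cells, 33.2 and 20 CPM in total against 8.31 and 8.2 CPM in granule RNA, and differed by 6.07 ± 0.55 (adjusted p = 0.027). Rrm2 rose in control cells from 205 CPM in each total to 460 and 439 CPM and differed by -2.48 ± 0.33 (adjusted p = 0.039). Lcn2 was far lower in control totals, at 11 and 14.9 CPM, than in knockout totals, and fell in both genotypes (difference -4.27 ± 0.50, adjusted p = 0.037). For Nrep, Tktl1, Atcayos, Ube2ql1 and Cldn4 the ratio was higher in knockout cells, and for Ms4a4d it was lower. This count rested on single libraries. It was 0 in each fit that left out any control library or either knockout granule library, 3712 without knockout total replicate 1 and 9349 without replicate 2, and DESeq2 called 2658.

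**Figure D5:**
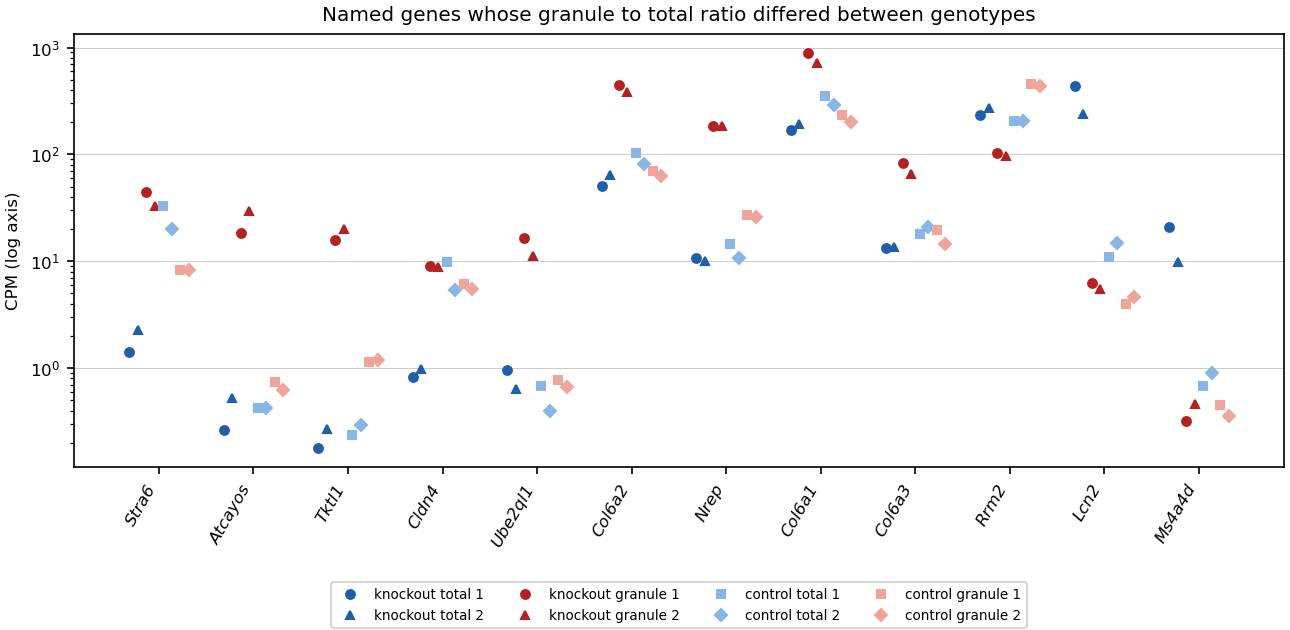
CPM on a log axis in all 8 libraries (dark blue and dark red, knockout total and granule; light blue and light red, control total and granule) for 12 named genes with a called difference between genotypes. Stra6 lies higher in granule than total RNA in knockout cells (44.2 and 32.9 against 1.41 and 2.28 CPM) and lower in control cells (8.31 and 8.2 against 33.2 and 20 CPM).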

How the data were processed

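RNA of 8 libraries, 2 each of knockout and control total and granule RNA, was sequenced after selection on oligo(dT) beads. The authors deposited raw read counts per Ensembl gene. The submitters' processing notes name STAR, DESeq2 and the builds GRCm38 and mm10. The counting program, its strand setting and the annotation release are not given in the sources used here. Of 39017 identifiers, 37693 matched the GENCODE M21 annotation of GRCm38, from which symbols, positions, biotypes and exon overlaps were taken. Samples were grouped by their labels.

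Genes kept by edgeR's filterByExpr were fitted in edgeR 4.0.16 (R 4.3.3, limma 3.58.1) with TMM scaling, 1 mean for each of the 4 groups (4 residual degrees of freedom) and the robust quasi-likelihood test. Log2 changes of single genes come from this fit. Their SE is the absolute log2 change divided by the square root of the F statistic of the test. CPM of single genes are TMM-scaled, log2 CPM used a prior count of 2, and a gene was called at an adjusted p under 0.05. Ratios against a single total library are differences of log2 CPM and carry no test. The scripts were tested on simulated data.

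The members and gene lists were chosen with earlier results of these data known. Genes were named by rule: the 8 highest and 8 lowest changes that held with a mean of at least 5 CPM, up to 6 members a direction of each list that held, Mettl3, and up to 4 members of each stress list whose totals lay furthest apart. Named after their values were seen were Atf4, Hmox1, Dusp1, Dusp4, Ifi27l2a, Zmat3, mt-Nd2, Vim, Epcam, Hspa8, the genes with a printed promoter that the rule did not reach (Chac1, Gars, Ifit3 and Rsad2) and Acan and called members of small counts. Counts of calls in control cells were also added then. Alternatives were other scalings and filters, removal of a GC trend, DESeq2 1.42.0, a replicate block, a fit of the 4 knockout libraries and leaving out each library.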

Additional observations from a re-analysis of the deposited data

Results flagged for a closer look

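The granule to total log2 ratio differed between knockout and control cells, by the test of that difference, for 12 of the named genes. The difference, knockout minus control, was 6.07 for Stra6, 5.26 for Atcayos, 4.18 for Tktl1, 3.70 for Cldn4 and 3.69 for Ube2ql1. For the collagen VI chains it was 3.36 (Col6a2), 2.70 (Col6a1) and 2.65 (Col6a3), and for Nrep 3.09. It was negative for Ms4a4d (-4.31), Lcn2 (-4.27) and Rrm2 (-2.48). For Ube2ql1 the ratio in control cells rested on low values, 0.677 and 0.399 CPM in total and 0.777 and 0.659 CPM in granule RNA. For Ms4a4d, control total RNA read 0.677 and 0.906 CPM, against 20.9 and 9.84 CPM in knockout total RNA. Whether these differences lie in the unstressed total or in the granule fraction was not tested separately.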

How the results depend on the processing

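The 3343 genes called in granule against total RNA became 5091 with DESeq2, 5794 with a GC trend removed, 5161 with every gene of at least 1 count, 1744 with a mean of at least 5 CPM, 1898 with a replicate block and 0 in the fit of the 4 knockout libraries alone (4363 at an unadjusted p under 0.05). Leaving out 1 library gave 243 to 9707. The 2381 that held became 1003 with a mean of at least 5 CPM, 0 in the 4-library fit, 808 with a 4-fold limit and 243 to 6834 without 1 library. The 98 differences between genotypes became 2658 with DESeq2, 1418 with the GC trend removed, 3476 with at least 1 count, 46 with a mean of at least 5 CPM, 156 with upper-quartile factors, 0 with a replicate block (3923 at an unadjusted p under 0.05) and 0 to 9349 without 1 library. Fewer genes are tested under the stricter filter, and fewer libraries enter the smaller fits. For the other changes the cause was not tested. The deviations of granule and total libraries with equal replicate numbers correlated at -0.13 in knockout and -0.233 in control cells over 10261 genes. Those of the totals went with GC content, so these values cannot tell whether equal numbers mark paired libraries. With the numbers crossed, chosen after seeing the data, 1955 genes were called and 0 differed between genotypes (3988 at an unadjusted p under 0.05).

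All 93 named genes that held kept their direction in each of these alternatives in which they were tested, but 82 were called with the block, 36 without knockout granule replicate 1 or 2 and 0 in the 4-library fit. The kept direction of the 93 follows largely from the rule for holding, one direction in all 4 pairings, and is no separate support. Of the values without total replicate 1 and without total replicate 2, the first reversed for Bbc3 (-0.42 and 2.12), Bst2 (-0.71 and 2.11), Chordc1 (0.21 and -1.12), Dnajb9 (0.06 and -3.31), Ftl1 (-0.62 and 2.54), Polk (0.22 and -2.32), Ptgs2 (0.76 and -0.99), Sdf2l1 (-0.27 and 1.30) and Slc39a10 (0.70 and -0.68). The second reversed for Ddit4 (-1.12 and 0.60), Eif4ebp1 (-1.69 and 0.09), Hsp90b1 (1.42 and -0.35), Ier5 (-0.69 and 0.89), Mt1 (0.94 and -0.17) and Phlda3 (-0.87 and 2.03). Ier5 also reversed with the block (0.05), crossed (0.04) and without knockout granule replicate 2 (0.17), and Phlda3 with the block (0.21), crossed (0.16), without knockout granule replicate 1 (0.03) and at a mean of at least 5 CPM (0.05). Slc39a10 reversed at that mean (0.01), with the GC trend removed (0.29) and with library size alone (0.06), and Ptgs2 with the GC trend removed (0.04).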
